A study of Mus musculus with 4 samples.

Results

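Cholesterol and fatty acid synthesis genes were followed through single-cell transcriptomes of DLA tumours from mice that received the HSP90 inhibitor SP11 or none. The 8 genes were taken by symbol from the 32285 gene rows of the count tables, with earlier results of these data known. They are Hmgcs1, Idi1, Fdps, Fdft1, Sqle, Insig1, Fasn and Scd1. DLA cells, labelled a lymphoma line, had been injected intraperitoneally into Swiss albino mice, and the collected tumours were profiled on the 10x Genomics Chromium platform, which counts unique molecular identifiers (UMIs) at the 3′ end of transcripts. The 2 control samples are labelled untreated, and the 2 SP11 samples came from mice given 30 mg/kg SP11 orally for 17 days after tumours had formed. DLA is 1 transplanted line in all 4 samples, the mice kept their own immune cells, and age and sex are not given in the sources used here. How many mice lie behind a library is not stated, so p-values measure only the spread between these 4 libraries.

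Cells make cholesterol from acetyl-CoA through the mevalonate pathway. Its genes, with those of fatty acid synthesis, are switched on by the SREBP transcription factors, which are held in the endoplasmic reticulum by INSIG proteins when sterols are plentiful. Proliferating tumour cells need both lipids for membranes, and macrophages take up, store and export cholesterol. Of the 8 genes, Hmgcs1 makes HMG-CoA at the entry of the pathway, Idi1 and Fdps build farnesyl pyrophosphate, Fdft1 makes squalene and Sqle oxidises it. Insig1 is the sterol-sensing brake and itself an SREBP target, Fasn makes palmitate, and Scd1 introduces a double bond into saturated fatty acids.

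Promoters were read for 3 genes called in a comparison: Fasn, higher after SP11, and Insig1 and Hmgcs1, called higher in macrophages than in tumour cells. The Hmgcs1 call was lost in several other settings. RefSeq windows on GRCm38.p6, from 250 bases before to 50 after the start site, were at hand for 4 of the 8 genes (Fasn, Insig1, Hmgcs1 and Idi1). Scd1 and Fdps, called in the comparison with B cells, had no such window. The stretches below run 5′ to 3′ on the gene's strand and stop before the first annotated transcript base. Capitals mark the CCAAT box, bound by NF-Y (letters CCAAT or, on the other strand, ATTGG), the sterol regulatory element letters TCACCCCAC, and the E-box CACGTG. In Fasn, a CCAAT and an ATTGG overlap in the second run of capitals.
Fasn, chr11:120824548-120824797, minus strand: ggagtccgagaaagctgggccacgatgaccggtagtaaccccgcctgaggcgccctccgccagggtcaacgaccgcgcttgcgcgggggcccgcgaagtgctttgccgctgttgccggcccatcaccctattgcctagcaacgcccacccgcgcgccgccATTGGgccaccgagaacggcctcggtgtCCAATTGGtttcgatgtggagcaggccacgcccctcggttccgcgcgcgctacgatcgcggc
Insig1, chr5:28071162-28071362, plus strand: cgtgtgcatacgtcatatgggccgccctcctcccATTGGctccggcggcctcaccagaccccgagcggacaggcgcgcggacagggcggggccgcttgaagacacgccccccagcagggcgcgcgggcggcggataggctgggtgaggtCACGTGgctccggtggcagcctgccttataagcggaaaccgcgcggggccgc
Hmgcs1, chr13:119690101-119690350, plus strand: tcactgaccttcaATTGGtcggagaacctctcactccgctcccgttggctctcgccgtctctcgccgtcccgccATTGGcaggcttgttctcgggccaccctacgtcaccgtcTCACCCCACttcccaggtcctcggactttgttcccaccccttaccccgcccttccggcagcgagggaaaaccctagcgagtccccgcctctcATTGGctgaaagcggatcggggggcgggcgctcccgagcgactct

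The CCAAT box stood 3 times in the printed stretch of Fasn, 3 times in that of Hmgcs1 and 1 time in that of Insig1. The printed stretches are shorter than the full windows of 300 bases, which held it 3, 4 and 1 times in the same order. Of all 32851 such windows, 37.4% hold it on either strand. The sterol regulatory element letters were found 1 time, in Hmgcs1, against 0.551% of all windows. The E-box was found 1 time, in Insig1, against 7.15% of windows. Idi1 held 2 CCAAT boxes in its window and neither of the other motifs. These matches describe the letters in the window and nothing more.

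All 8 genes are protein coding, and their identifiers in the tables are those of GENCODE M21 on mm10. Fasn spans chr11:120805846-120824547 on the minus strand, Insig1 chr5:28071363-28078662 on the plus strand, Hmgcs1 chr13:119690379-119708260 on the plus strand and Scd1 chr19:44394455-44407879 on the minus strand. Fdps lies at chr3:89093588-89101959 on the minus strand, Fdft1 at chr14:63145150-63179578 on the minus strand, Sqle at chr15:59315077-59331192 on the plus strand and Idi1 at chr13:8885501-8892451 on the plus strand. For 7 of the 8, none of the 451 words of 50 bases in the last 500 bases of the longest coding transcript occurred in a transcript of another gene. For Fdps, 74.1% of these words also occurred in transcripts of 7 other annotated genes, mostly processed pseudogenes, so its counts are uncertain where reads could be split.

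Tumour cells were barcodes with at least 5 Krt8 and Krt18 UMIs, and immune classes were gated by UMIs of their markers. Control 1, Control 2, SP11 1 and SP11 2 held 845, 528, 1256 and 582 tumour cells, with 9646559, 9477943, 12287495 and 12130122 UMIs in the sums. Against their lymphoma label, the keratin-positive cells held 7 of 8 epithelial markers at a summed 4160 to 7471 CPM (UMIs per 1000000 UMIs of the class). These markers include Krt8 and Krt18, which set the gate, so the sum is partly fixed by it. Their means were 1243 and 2333 CPM in controls and 1252 and 2188 after SP11, and the other epithelial markers were not summed apart. T lineage markers stood at 1.05 to 10.0 CPM. B lineage markers stood at 1.04 and 1.48 CPM in control tumour cells against 111 and 58.8 after SP11. Hemoglobin and other erythroid markers were at 267 and 178 against 10610 and 4740, and macrophage markers at 10.99 and 10.55 against 99.8 and 33.6, all higher after SP11. The tumour class made up 92.2% and 93.3% of kept control barcodes and 68.6% and 53.3% of those after SP11.

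The first comparison asked whether SP11 changed these genes in tumour cells. Fasn, the cytosolic synthase of palmitate, was the only one of the 8 to pass the test. Its level was 16.5 CPM in Control 1 (159 UMIs), 16.2 in Control 2 (154), 31.8 in SP11 1 (391) and 28.9 in SP11 2 (350). Both SP11 libraries lay well above both controls, and the 95% counting intervals of the groups did not meet (14.0 to 19.3 and 13.8 to 19.0 against 28.7 to 35.1 and 25.9 to 32.0). Means were 16.4 ± 0.163 and 30.3 ± 2.1 (SD, n = 2 each). In edgeR's quasi-likelihood test on the summed counts, Fasn rose by 0.77 ± 0.15 (SE) on the log2 scale, 1.7-fold, with a Benjamini-Hochberg adjusted p of 0.00827 over 11588 genes. The test called 1 of the 8 genes, and 2.31% of all genes tested (210 higher and 58 lower).

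**Figure D1:**
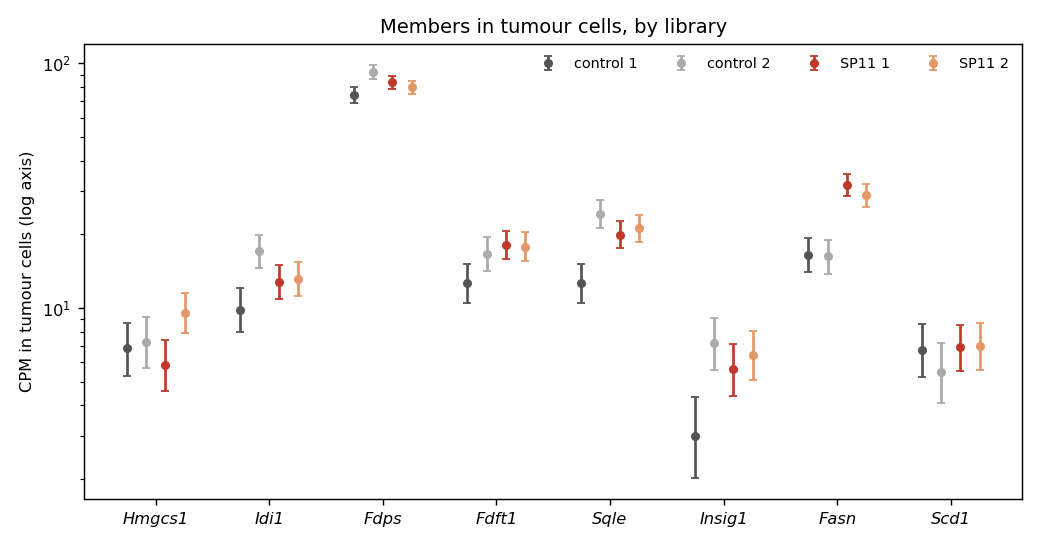
CPM of each gene in the summed tumour cells of each library, on a log axis, with exact 95% Poisson intervals. Fasn at 31.8 and 28.9 in the SP11 libraries stands above 16.5 and 16.2 in the controls, while for Sqle, Idi1 and Insig1 Control 1 is the lowest library.

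The rise of Fasn was also seen at equal depth per cell. Tumour cells of the libraries differed in median depth, from 8891.5 UMIs in SP11 1 to 19843 in SP11 2, so each cell was thinned to 5000 UMIs and shallower cells were left out (46, 17, 105 and 7 cells). A Fasn UMI was then found in 6.38% of 799 cells of Control 1, 6.07% of 511 of Control 2, 13.0% of 1151 of SP11 1 and 14.8% of 575 of SP11 2. Without thinning, the shares were 16.9%, 24.8%, 25.2% and 44.9%, in which Control 2 and SP11 1 could not be separated. On thinned counts the rise was 1.14 on the log2 scale (adjusted p = 0.000659, edgeR). No tumour cell held more than 6 Fasn UMIs before thinning, and the highest cell gave at most 2.6% of a library's Fasn UMIs.

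Fasn stayed called in 11 other settings, with a rise of 0.76 to 1.14 and an adjusted p of at most 0.0297. Leaving out the tumour cells that also passed an immune gate gave 0.76 (adjusted p = 0.00668), and leaving hemoglobin genes out of the totals gave 0.77 (adjusted p = 0.00797). In the SP11 libraries Fasn was at 11.9 and 10.5 CPM in macrophages and at 25.5 and 7.79 in B cells, below the tumour sums of the same libraries, although with 2 to 4 UMIs each their counting intervals all met those of the tumour sums. T cells and neutrophils were too shallow to compare. The call rested on both controls: without Control 1 the rise was 0.80 with an adjusted p of 0.0578, and without Control 2 it was 0.73 with 0.123, where the lone control is assumed to vary like the SP11 pair. Without SP11 1 and without SP11 2, adjusted p was 0.0348 and 0.000131.

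**Figure D2:**
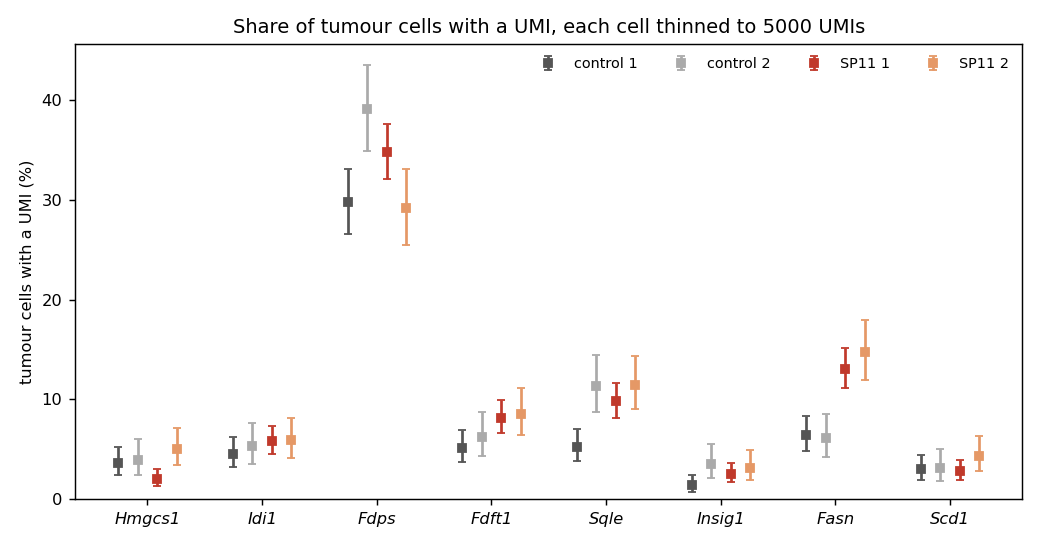
Share of tumour cells with at least 1 UMI of each gene after thinning every cell to 5000 UMIs, with exact 95% binomial intervals. Fasn is at 6.38% and 6.07% in controls and 13.0% and 14.8% after SP11, and the intervals of the groups do not meet.

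Scd1, which acts downstream of Fasn, did not follow it. Its level was 6.74 and 5.49 CPM in the controls and 6.92 and 7.01 after SP11. The groups did not overlap, but by less than their counting error, and the fitted difference was 0.06 ± 0.21 on the log2 scale (adjusted p = 0.927, edgeR). Groups that did not overlap were found for 3 of the 8 genes (Fasn, Fdft1 and Scd1), against 44.9% of all genes tested.

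The 5 enzymes of the sterol branch showed no change past the test. Hmgcs1 was at 6.84 and 7.28 CPM in controls and 5.86 and 9.56 after SP11, a difference of -0.01 ± 0.22 on the log2 scale. The SP11 libraries lay on either side of the controls. Idi1 was at 9.85, 17.1, 12.8 and 13.2 in Control 1, Control 2, SP11 1 and SP11 2 (-0.18 ± 0.20), and Fdps at 74.1, 92.4, 83.6 and 79.7 (-0.15 ± 0.13). For both, the controls spanned the SP11 libraries.

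Fdft1, the first enzyme committed to sterols, was at 12.6 and 16.7 CPM in controls and 18.1 and 17.8 after SP11, a difference of 0.17 ± 0.17 on the log2 scale. Both SP11 libraries were higher, by less than the distance between the controls. Sqle, squalene epoxidase, was at 12.6 and 24.3 in controls and 19.9 and 21.2 after SP11 (0.03 ± 0.21). Control 1 was low and Control 2 was the highest of the 4 libraries. Adjusted p ran from 0.645 to 0.99 over the 5 enzymes.

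Insig1, the sterol-sensing brake, was at 3.01, 7.17, 5.62 and 6.43 CPM in Control 1, Control 2, SP11 1 and SP11 2. Control 1 stood apart with 29 UMIs, and the other 3 libraries were close together. The difference was 0.12 ± 0.29 on the log2 scale (adjusted p = 0.892, edgeR), and its direction turned with the control left out, at -0.36 without Control 1 and 0.85 without Control 2. Summed over the 8 genes, tumour cells held 142, 187, 185 and 184 CPM, and Control 1 was the lowest library for 5 of the 8 (Sqle, Idi1, Fdps, Fdft1 and Insig1).

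The other genes of the pathways, from lists of 21 sterol synthesis, 17 fatty acid synthesis and 13 sterol sensing genes that include the members, showed few changes. None of 19 sterol synthesis genes tested was called in either direction by edgeR or DESeq2, and 1, Mvd, had an unadjusted p below 0.05 (median difference -0.05 on the log2 scale, against 0.0 over all genes). Of 13 fatty acid synthesis genes tested, Fasn was called and 12 were not (median 0.14). Acly, which makes the cytosolic acetyl-CoA that Fasn uses, was at 8.29, 10.97, 15.0 and 16.2 CPM in Control 1, Control 2, SP11 1 and SP11 2. Both SP11 libraries were above both controls, and the difference of 0.57 ± 0.17 did not pass the test (adjusted p = 0.115).

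None of 11 sterol sensing genes tested was called by edgeR or DESeq2, against 2.31% of all genes in edgeR. Of the 11, 3 had an unadjusted p below 0.05 in edgeR, and the median difference was 0.29. Scap, which escorts SREBP out of the endoplasmic reticulum, differed by 0.54 ± 0.19 (adjusted p = 0.175). The SREBP genes themselves were low, Srebf1 at 4.46, 3.90, 5.45 and 6.27 and Srebf2 at 13.1, 16.5, 16.6 and 19.9 CPM in the same order of libraries.

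**Figure D3:**
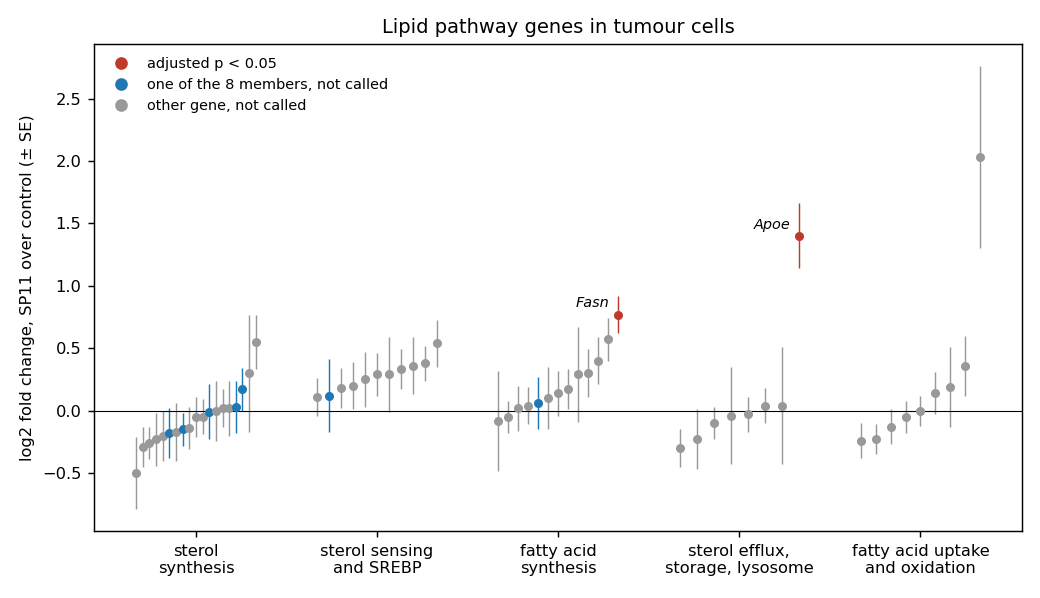
Log2 fold change of SP11 over control in tumour cells, with its SE, for every tested gene of 5 lipid lists, ordered within each list. Fasn at 0.77 and Apoe at 1.40 are the genes called, and the members that were not called lie between -0.18 and 0.17.

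Among 8 tested genes of sterol efflux, storage and lysosome, Apoe, the lipoprotein that macrophages secrete, was called. It was at 6.12 and 6.01 CPM in control tumour cells and 22.2 and 12.5 after SP11, a rise of 1.40 ± 0.26 (adjusted p = 0.006, edgeR). SP11 libraries were higher, and so were the macrophage markers given above in the same sums. Without the tumour cells that passed an immune gate the difference was 0.73 with an adjusted p of 0.12, without the highest doublet scores 1.19 with 0.136, and without Control 2 it was 1.37 with 0.0988. Its level in the macrophage class was 414 to 1897 CPM. None of 9 tested genes of fatty acid uptake and oxidation was called by edgeR or DESeq2 (median 0.0, with 1 unadjusted edgeR p below 0.05). None of 15 mitotic genes was called (median -0.12, with 2). The share over all genes was 2.31% in edgeR.

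Tumour cells were next set against macrophages and monocytes of the same libraries, to see which cells carried each gene. The macrophage-monocyte class held 24, 15, 205 and 129 cells with 45904, 48300, 252022 and 284453 UMIs, so most of its counts came from the SP11 libraries. Insig1 and Hmgcs1 were higher in macrophages and Fasn was higher in tumour cells: 3 of the 8 genes were called, against 42.5% of 10419 genes tested. A count of 3 of 8 is close to that background. Simulated counts at this depth gave back 10% of genes changed 2-fold and 45% of those changed 4-fold. These shares are averages over genes of all levels, and many differences of these sizes would be missed.

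Insig1 gave 0, 0, 9 and 10 UMIs in macrophages of Control 1, Control 2, SP11 1 and SP11 2, which is 35.7 and 35.2 CPM in the SP11 libraries against 5.62 and 6.43 in their tumour cells. Both SP11 macrophage sums lay above all tumour sums, while the controls were too shallow to tell, since 0 UMIs allow up to 65.4 and 62.1 CPM there. The difference, tumour cells minus macrophages, was -2.23 ± 0.53 on the log2 scale, 4.69-fold higher in macrophages (adjusted p = 0.00014, edgeR with the library as a block). Without SP11 2 the adjusted p was 0.0832, and over the 10 other settings it was at most 0.034.

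Hmgcs1 gave 4, 1, 1 and 7 UMIs in macrophages, or 87.1, 20.7, 3.97 and 24.6 CPM. SP11 1 lay below its tumour cells at 5.86, and the other 3 libraries lay above theirs. The difference was -1.48 ± 0.58 on the log2 scale, 2.79-fold higher in macrophages (adjusted p = 0.028), a call lost in DESeq2 (adjusted p = 0.0754), without a filter on low counts (0.0921) and without Control 1 (0.296), Control 2 (0.0505) or SP11 2 (0.218).

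Fasn gave 0, 0, 3 and 3 UMIs in macrophages, 11.9 and 10.5 CPM in the SP11 libraries against 31.8 and 28.9 in tumour cells. Tumour cells were higher in both SP11 libraries, and the controls allow any level up to 65.4 and 62.1 CPM. The difference was 1.55 ± 0.61 (adjusted p = 0.0295), lost in DESeq2 (0.0555), with at least 500 genes per barcode (0.0504), with at most 1 keratin UMI per immune barcode (0.0592), and without SP11 1 (0.146) or SP11 2 (0.181). Epithelial markers were at 623 and 337 CPM in the SP11 macrophage sums, against 5956 and 5327 in the tumour cells. They include Krt8 and Krt18, which the gates limit in macrophages and require in tumour cells, so the gates partly set this contrast. The part of tumour RNA in the Fasn counts was not tested.

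The remaining 5 genes did not pass. Fdps gave 4, 8, 16 and 14 UMIs in macrophages (0.23 ± 0.33 on the log2 scale, tumour over macrophage), Fdft1 0, 0, 6 and 9 (-0.38 ± 0.50), Idi1 0, 0, 4 and 4 (0.10 ± 0.62), Sqle 1, 0, 1 and 4 (1.09 ± 0.63) and Scd1 0, 0, 2 and 0 (1.11 ± 1.03). Summed over the 8 genes, macrophages held 196, 186, 167 and 179 CPM against 142, 187, 185 and 184 in tumour cells. The totals of the classes were close in the SP11 libraries and were not tested. In the controls, 9 macrophage UMIs each, of which Fdps gave 4 and 8, allow 89.7 to 372 and 85.2 to 354 CPM.

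**Figure D4:**
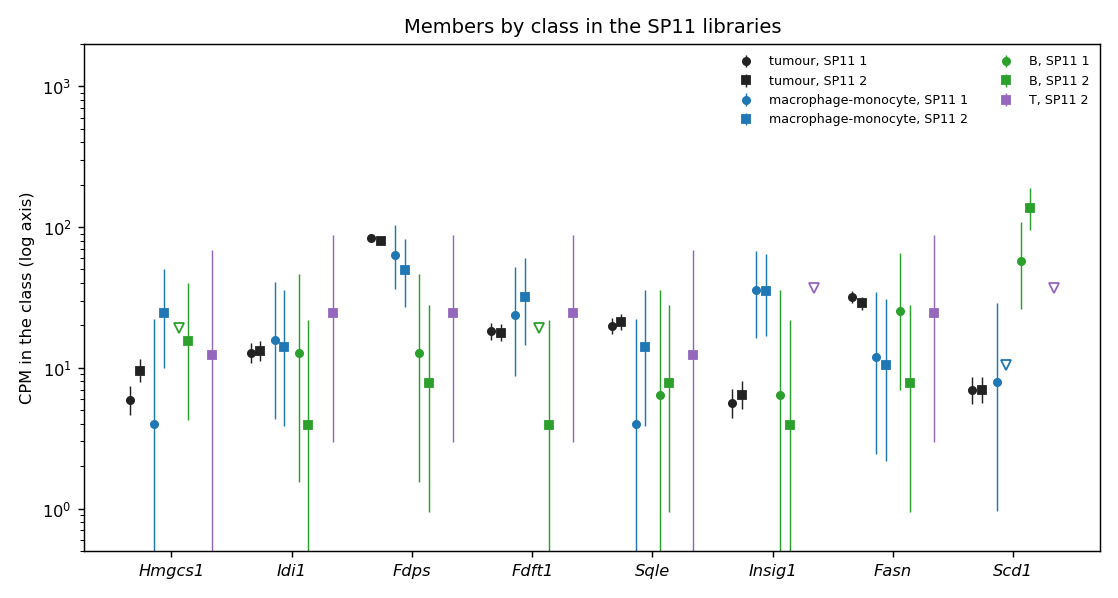
CPM of each gene, on a log axis, in tumour cells, macrophages and monocytes, B cells and T cells of the SP11 libraries, with exact 95% Poisson intervals. Open triangles mark the level that 3 UMIs would give where none was seen. Scd1 stands at 57.4 and 136 in B cells, and Insig1 at 35.7 and 35.2 in macrophages.

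Of the wider lists, that of efflux held the most calls for macrophages. Of 9 tested genes of sterol efflux, storage and lysosome, 8 were higher in macrophages and none in tumour cells, with a median of -2.27 on the log2 scale against 0.43 over all genes. The cholesterol exporters Abca1 and Abcg1 were 178-fold and 133-fold higher in macrophages, Apoe 103-fold and the lysosomal lipase Lipa 63.5-fold. In tumour cells Abca1 reached at most 0.742 and Abcg1 at most 0.977 CPM.

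Of 10 tested genes of fatty acid uptake and oxidation, 4 were higher in macrophages and 1 in tumour cells, a share near the 42.5% of all genes. The fatty acid carrier Fabp5 was 257-fold, the lipase Lpl 170-fold, the uptake receptor Cd36 150-fold and the mitochondrial importer Cpt1a 13.7-fold higher in macrophages, and Acadl, an acyl-CoA dehydrogenase, 2.75-fold higher in tumour cells. Of 11 fatty acid synthesis genes, 3 were higher in macrophages, led by Acly at 6.07-fold (43.6 to 120 CPM against 8.29 to 16.2 in tumour cells), and 2 in tumour cells. Those were Fasn and Fads3, a fatty acid desaturase homologue, at 32.0 to 34.5 CPM in tumour cells against 0, 0, 0 and 3.52 in macrophages. Of 18 sterol synthesis genes 3 were higher in macrophages and 1 in tumour cells, of 11 sterol sensing genes 2 and none, and all 15 mitotic genes were higher in tumour cells.

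B cells were seen in number only after SP11, with 150 and 144 cells and 156897 and 256802 UMIs, so they were compared with tumour cells of the SP11 libraries alone. Scd1 was higher in B cells and Fdps in tumour cells: 2 of the 8 genes were called, against 34.2% of 11192 genes tested. The count is again not above that background, and with 1 library left out no test remains.

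Scd1 gave 9 UMIs in 9 of the B cells of SP11 1 and 35 UMIs in 29 of those of SP11 2, which is 57.4 and 136 CPM against 6.92 and 7.01 in tumour cells. Both B cell sums lay above every tumour sum. The counting intervals of the B cell sums met each other, and the difference between them was not tested. Scd1 was 14.6-fold higher in B cells (-3.86 ± 0.47 on the log2 scale for tumour cells minus B cells, adjusted p = 4.57e-15, edgeR), and adjusted p was at most 2.45e-09 over 10 other settings. The intervals were 26.2 to 109 and 94.9 to 190 CPM.

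No B cell held more than 2 Scd1 UMIs. Macrophages of the same libraries held 2 and 0 Scd1 UMIs, an interval of 0.961 to 28.7 CPM and an upper limit of 10.5, and the 82 T cells of SP11 2 held none, which allows 36.7. Barcodes with fewer than 200 genes held 1 and 0 Scd1 UMIs in 392815 and 582278 UMIs. What kind of barcodes these are was not tested, so no level of Scd1 outside cells is read from them. B cells were not tested against macrophages, and their intervals for Scd1 met in SP11 1.

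The Scd paralogs differed in their shares between classes. Scd1 made up 81.8% of 11 and 97.2% of 36 UMIs of the Scd genes in B cells of SP11 1 and SP11 2, and 34.7% to 39.7% in the tumour cells of the 4 libraries. In tumour cells Scd2 was the larger part, with 94, 79, 119 and 147 UMIs against 65, 52, 85 and 85 of Scd1. Scd2 was also 3.09-fold higher in macrophages than in tumour cells (adjusted p = 0.00244, edgeR), a call lost without SP11 2 (0.322).

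Fdps gave 2 and 2 UMIs in B cells, 12.7 and 7.79 CPM against 83.6 and 79.7 in tumour cells, and was 8.12-fold higher in tumour cells (3.02 ± 0.51, adjusted p = 2.92e-08). Both libraries showed it. Fdft1, the next enzyme, gave 0 and 1 UMI in B cells against 18.1 and 17.8 CPM in tumour cells, and at 2.84 ± 1.20 (adjusted p = 0.0508) it lay at the threshold, which it passed in 7 of 10 other settings. Sqle was at 6.37 and 7.79, Idi1 at 12.7 and 3.89, Insig1 at 6.37 and 3.89, Hmgcs1 at 0 and 15.6 and Fasn at 25.5 and 7.79 CPM in B cells, and none of these passed (adjusted p of 0.179 to 0.898).

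**Figure D5:**
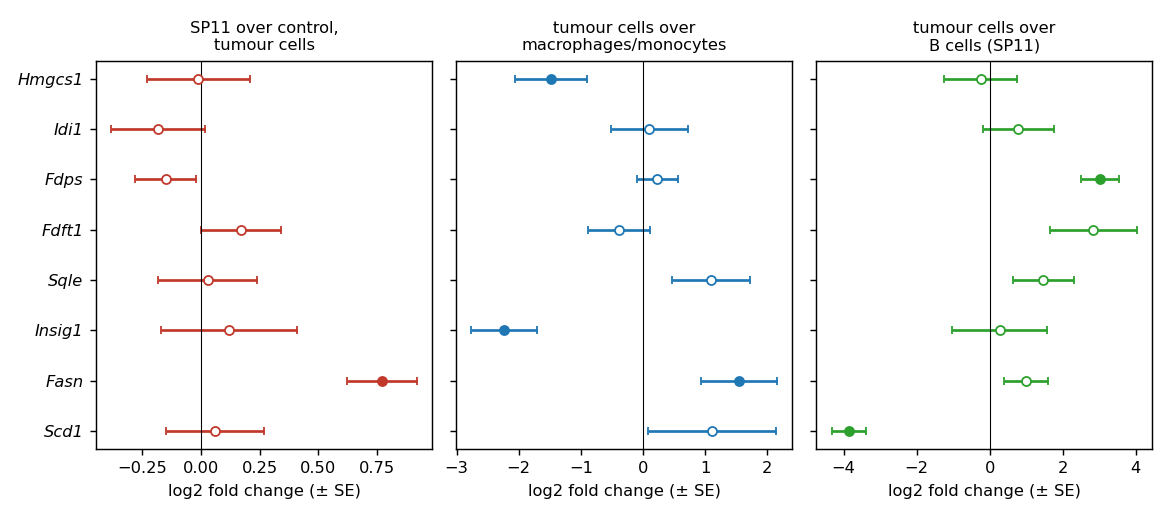
Log2 fold changes with their SE for the 8 genes in the 3 comparisons, with filled points for an adjusted p under 0.05 and open points otherwise. The called genes are Fasn for SP11, Insig1, Hmgcs1 and Fasn against macrophages, and Scd1 and Fdps against B cells.

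Of the wider lists against B cells, Abcg1 was 60.5-fold, Abca1 29.7-fold, Lipa 13.8-fold, Apoe 9.88-fold and Cd36 9.01-fold higher in B cells, whose sums also held macrophage markers at 217 and 401 CPM against 10550 and 11220 in macrophages. The part of that RNA was not tested. Cd36 lost its call in DESeq2 (adjusted p = 0.0557) and without a filter on low counts (0.105). Fads3 was 4.47-fold higher in tumour cells, which DESeq2 did not call (adjusted p = 0.153), and Cpt2, a mitochondrial acyltransferase, had 0 UMIs in B cells. By list, sterol synthesis had 1 gene higher in tumour cells and 0 lower of 18, fatty acid synthesis 1 and 3 of 12, and efflux and storage 1 and 4 of 9. Uptake and oxidation had 2 and 2 of 10, and the mitotic list 14 and 0 of 15. The 2 higher genes of uptake and oxidation are Acadl and Cpt2, and for Cpt2 no difference could be estimated. Over all genes tested, 34.2% were called in either direction.

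T cells and neutrophils were too few for a test. The T cells of SP11 2 held 10 UMIs of the 8 genes in 81680, with Idi1, Fdps, Fdft1 and Fasn at 2 UMIs each, Hmgcs1 and Sqle at 1 and the others at 0. The other T cell sums held none, in 1 to 16 cells. For each gene the order of classes in the SP11 libraries could be told only for 3 genes: macrophages above tumour cells for Insig1, B cells above tumour cells for Scd1, and tumour cells above B cells for Fdps.

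Whether SP11 acted differently in tumour cells and in macrophages was tested for the 3 genes with UMIs in the control macrophages. The SP11 effect in tumour cells minus that in macrophages was 1.74 ± 1.21 for Hmgcs1, 0.87 ± 0.58 for Fdps and 0.08 ± 1.86 for Sqle on the log2 scale. None was called (adjusted p of 0.907 to 1.0), against 0.682% of 11433 genes. None was called by DESeq2, and 0 had an unadjusted p below 0.05 (the smallest was 0.131). For the other 5 genes the control macrophages held 0 UMIs, and no effect could be estimated. SP11 against control within macrophages was not tested, as Control 2 held 15 such cells and at least 20 in every library had been required.

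The next question was whether the genes followed the cell cycle. Tumour cells thinned to 5000 UMIs were split by the summed UMIs of 15 mitotic genes, the upper against the lower tail of each library. Fasn was at 14.2, 13.0, 26.4 and 30.3 CPM in the mitotic-gene-high cells of Control 1, Control 2, SP11 1 and SP11 2, and at 15.6, 15.2, 27.7 and 29.5 in the low cells. The SP11 libraries were above the controls in both sets of cells.

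Of 5 members with counts enough for the test, none was called between mitotic-gene-high and low cells, against 16.4% of 6998 genes. Differences were -0.13 ± 0.20 for Fasn, -0.04 ± 0.11 for Fdps, 0.10 ± 0.21 for Sqle, 0.22 ± 0.25 for Fdft1 and -0.40 ± 0.31 for Idi1 (unadjusted p of 0.196 to 0.699 in edgeR, 0 of them below 0.05, and 0 called by DESeq2). Of the lists, Pmvk, a mevalonate kinase, was 1.49-fold higher in mitotic-gene-high cells, and Cyp51, lanosterol demethylase, 1.80-fold, the elongase Elovl1 1.37-fold and the lysosomal sterol carrier Npc2 1.14-fold lower. None of the 4 was called in DESeq2 (adjusted p of 0.918, 0.593, 0.574 and 0.395 in the order named), and each lost its call with 1 or more libraries left out, at most at 0.66, 0.431, 0.177 and 0.23.

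Within tumour cells no shared rise of the members passed the test. The sums of cells with a Hmgcs1 UMI held only 100000 to 145000 UMIs, too few to show a small shared rise. Thinned cells with a Hmgcs1 UMI (29, 20, 23 and 29 cells) were set against those without, and none of 5 other members tested was called. Over all genes 0.0661% of 7567 were called, and these include Hmgcs1 itself, which chose the cells. Differences were -0.81 ± 0.58 for Sqle, -1.05 ± 0.80 for Idi1, -0.32 ± 0.25 for Fdps, 0.25 ± 0.54 for Fdft1 and -0.22 ± 0.48 for Fasn. Adjusted p was 0.94 to 0.991 in edgeR, 0 had an unadjusted p below 0.05, and 0 were called by DESeq2. Over 28 pairs of members, Pearson r across cells of a library ran from -0.0742 to 0.118, and 1 pair, Idi1 and Fdps, was positive in all 4 libraries. Among the 10 genes whose counts ran most with the summed members across 3036 thinned cells were Ap2s1, Cbx3, Cks1b, Me2, Dpm2, Ubtf, Akr1b3, Rhob and Ndufa2. The lowest r over the 4 libraries was 0.0474 at most for the 10, of 2932 genes ranked, and in counts this sparse such values are no finding.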

How the data were processed

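The deposited files hold raw UMI counts per gene and barcode, 1 matrix per library, which the authors made with Cell Ranger (version 7.1.0 per the file headers). The build is mm10 per the submitters' processing notes, while the study's methods name a human build for all its samples. Barcodes with at least 200 genes and at most 10% mitochondrial UMIs were kept (916, 566, 1831 and 1091 of 977, 595, 2277 and 1483). Tumour cells had at least 5 Krt8 and Krt18 UMIs. Immune barcodes had fewer keratin UMIs, under 50% hemoglobin UMIs and passed 1 gate alone: at least 5 UMIs of macrophage, 2 of B cell, 2 of T cell or 10 of neutrophil markers. Clusters and cell type names of the authors were not used here.

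Counts were summed per library and class, since cells are not replicates. The sums were tested with edgeR 4.0.16 (TMM, filterByExpr, quasi-likelihood F test, Benjamini-Hochberg over all genes tested, threshold 0.05), with the library as a block where classes of the same libraries were compared. SE is the log2 fold change divided by the square root of F. DESeq2 1.42.0, RLE size factors, other filters and gates, thinning and leaving out each library were alternatives. R 4.3.3, Python 3.11.15 and scanpy 1.11.5 were used. Shares have exact Clopper-Pearson and levels exact Poisson 95% intervals, which cover counting error only, and 3 counts mark the limit for a count of 0.

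Scrublet's own threshold marked 88.9% of barcodes in Control 1 and 0.0546% in SP11 1, so it was taken not to have worked. Doublets were kept, and leaving out the 5% highest scores of each library was an alternative. Libraries shared 60 to 359 barcodes pairwise, with classes agreeing about as often as class makeup gives, and no pair of libraries agreed within sampling noise.

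On simulated counts for SP11 against control in tumour cells (11441 genes), the test recovered 85% of genes changed 2-fold and 99% of those changed 4-fold, with 6 false calls of 190. The members and gene lists were chosen with earlier results of these data known. Named are the 8 members, in each comparison up to 10 called list genes with the largest change, and the 10 genes most like the summed members. Acly, Scap, Mvd, Srebf1, Srebf2, Scd2 and the smaller called list genes were named after their values were seen. Values of 2 of the genes this rule or the lists hold are not reported here.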

Additional observations from a re-analysis of the deposited data

Results flagged for a closer look

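Fabp5, a fatty acid carrier of the uptake and oxidation list, was the 1 list gene whose SP11 effect differed between the classes in a test of that difference. Its level in macrophages and monocytes was 2788 and 1511 CPM for the controls against 436 and 601 for the SP11 libraries, while tumour cells held 3.01 and 3.27 against 4.96 and 2.80 CPM. The control macrophages were above those of the SP11 libraries, and tumour cells overlapped. The effect in tumour cells minus that in macrophages was 2.03 ± 0.33 on the log2 scale (adjusted p = 5.56e-07, edgeR). It rested on 24 and 15 control macrophages. Without Control 1 it was 1.35 (adjusted p = 0.094) and without SP11 1 it was 1.32 (adjusted p = 1.0).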

How the results depend on the processing

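Of the 8 genes, 1 was called for SP11 in tumour cells under every alternative except leaving out a library, where the count ranged from 0 to 1. Against macrophages 3 were called, 1 in DESeq2, and 0 to 3 when a library was left out. The counts against B cells, between mitotic sets, by Hmgcs1 and for the difference of the SP11 effect between classes stayed within 1.5 times. Every change of direction among the genes named concerned one that had not passed the test of that comparison. With a library left out, for SP11 in tumour cells, Insig1 ranged from -0.36 to 0.85, Sqle from -0.35 to 0.55, Idi1 from -0.50 to 0.25, Hmgcs1 from -0.34 to 0.26 and Scd1 from -0.10 to 0.24. Hmgcs1 was also 0.0 without a filter, and Idi1 0.20 and Scd1 -0.02 when thinned. For the difference of the SP11 effect between classes, Sqle ranged from -0.52 to 1.42 with a library left out. It was -0.02 without a filter and -0.05 with 500 genes, and Fdps was -0.21 with at most 1 keratin UMI per immune barcode. With a library left out, Idi1 against macrophages ranged from -0.08 to 0.47, Fdft1 from -0.51 to 0.23, Fdft1 between mitotic sets from -0.13 to 0.51 and Sqle from -0.18 to 0.20, and by Hmgcs1 Fdft1 from -0.05 to 0.59 and Fasn from -0.98 to 0.18. Hmgcs1 against B cells was 0.22 in DESeq2. The cause was not tested.

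Over all genes, SP11 calls in tumour cells numbered 268, but 149 in DESeq2, 136 when thinned, 141 without the highest doublet scores, 174 without tumour cells passing an immune gate and 78 to 425 with a library left out. Calls for the difference of the SP11 effect between tumour cells and macrophages numbered 78, but 43 in DESeq2 and 130 with at most 1 keratin UMI. This count also moved with a library left out. Against macrophages 4428 became 2453 without SP11 2, against B cells 3830 became 2190 in DESeq2, and between mitotic sets 1150 became 355. By Hmgcs1, 5 became 1 in DESeq2, 2 with at least 10 keratin UMIs and 40 without a filter. The 5 include Hmgcs1 itself, which chose the cells.

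The libraries share replicate numbers, and the study describes its control and SP11 samples as 2 independent sets. Nothing says that a replicate number marks a set or pairs libraries. Same-numbered deviations correlated at 0.125 over 11588 genes with 2 pairs only. With the replicate block, 1 of the 8 genes was called (Fasn, 0.76, adjusted p = 2.35e-07) and 1038 genes in all. Depth limits the immune classes most. SP11 against control in macrophages, the split at 2 Hmgcs1 UMIs (0 or 1 cells per library) and leaving out a library against B cells were not run. For Sqle, no difference of the SP11 effect between classes could be given without Control 1. Scd1 against macrophages had no value without SP11 1 and with at most 1 keratin UMI. In these cases 1 side held 0 UMIs.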
